A study of Mus musculus with 47 samples.

Results

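Villi of the small intestine of Apc1638N/+ mice were compared with villi of wild-type mice on 8 of the 47 arrays of the series, all 4 arrays titled for Apc1638N/+ villi and all 4 titled for wild-type villi. All 45101 probe sets on the platform, a mouse 3' array from Affymetrix, were considered, and each difference is given as log2 mutant minus log2 wild type. Both groups were C57BL/6 mice on the Ain76A diet and 3 months old. They differed by the Apc1638N allele, which the mutants carried in 1 copy. The series also holds crypts of the same genotypes, crypts and villi labelled p21-/- (Cdkn1a deleted) from 3-month-old mice, and crypts and villi of wild-type mice kept on Ain76A, NWD1 or NWD2 for 1 year. By its title, the series asks how such genetic and dietary risk factors for tumours change expression in both compartments. The labels do not say that the arrays of a group come from separate animals, so p-values measure the spread between arrays. In the main fit that spread, and with it each SE of a difference, was estimated within the 12 groups over all 47 arrays, not over the 8 villus arrays alone.

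Apc is the scaffold of the complex that marks beta-catenin for destruction, and Wnt signalling works by switching that complex off. In the small intestine Wnt signalling is strongest in the crypts, where stem cells divide and Paneth cells reside, and it fades as cells move onto the villus and differentiate into enterocytes, goblet, enteroendocrine and tuft cells. The Apc1638N allele truncates the protein, and heterozygous mice develop a small number of intestinal tumours after loss of the other copy. The tissue analysed is a bulk villus fraction, so fewer cells of a type and less RNA per cell cannot be told apart.

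The villus label was checked against markers. All 21 enterocyte brush border genes with a probe set on the array were measured on at least 1 of the 8 arrays. A crypt-villus score was built from genes chosen on crypts and villi of 1-year-old mice on the Ain76A diet. Those villi lay between -3.38 and -2.69 and their crypts between 1.90 and 2.71, a gap set by the choice of genes. Wild-type crypts of 3-month-old mice, not used for the choice, ranged from 0.02 to 2.13. The score ranged from -2.47 to -1.69 in Apc1638N/+ villi and from -2.73 to -1.85 in wild-type villi. Some defining genes of other tissues were blank on all 8 arrays. They were 7 of 20 for stroma, muscle and vessels (Lum, Acta2, Myh11, Pdgfra, Pecam1, Cdh5 and Sparc), 5 of 9 for pancreatic acinar cells and 4 of 19 for myeloid cells, among them C1qa and Aif1. The other genes of these lists with a probe set had a value on at least 1 of the 8 arrays. Of 27 intraepithelial lymphocyte and 10 Paneth cell genes 0 were blank throughout, so the blanks do not show that other cells were absent. The arrays held values for 17078 to 21173 probe sets and were blank for the rest. None of 5 measures of array quality and content separated the genotypes in an exact two-sided permutation test of 4 against 4 arrays, whose smallest possible p is 0.0286 (measured probe sets, p = 0.2; crypt-villus score, p = 0.257; 3'-to-5' signal of actin, p = 0.6, and of Gapdh, p = 0.914; spike-in level, p = 0.914; adjusted p 0.643 to 0.914).

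One mutant array stood apart. Apc1638N/+ array 3 correlated with the other 3 mutant arrays at r = 0.860 to 0.870 over the 5048 genes measured throughout, whereas those 3 correlated with each other at up to 0.961, and array 3 correlated more highly with each wild-type array (r = 0.883 to 0.934). Mutant arrays 2 and 4 also had their highest correlation with a wild-type array (0.966 for both), so this was not particular to array 3, whereas its low correlation with the other mutant arrays was lower than that of any of the other 7 villus arrays with the closest array of its own genotype. It had the highest mean level of intraepithelial lymphocyte genes (12.94 against 10.99 to 11.21 on the other mutant arrays), of myeloid genes (11.14 against 9.55 to 9.73) and of enteroendocrine genes (12.26 against 10.52 to 11.47). Among the mutant arrays it also had the fewest measured probe sets (17807), the highest 3'-minus-5' signal of actin (1.99) and of Gapdh (0.31) and the highest spike-in level (14.16), all within the range of the wild-type arrays. The part of these cells and of RNA quality in the results below was not tested. Counts and list medians that moved without this array are given both ways.

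Few single genes separated the genotypes. Of 7152 genes measured on at least 3 arrays of each genotype, 2 rose in Apc1638N/+ villi and 0 fell at an adjusted p under 0.05 (0.028% called; limma on all 47 arrays, Benjamini-Hochberg adjustment over all tested genes). Both were higher in the mutant, and they were Hspa1a, which encodes an inducible cytosolic Hsp70 chaperone, and Gtpbp10, which encodes a GTPase of mitochondrial ribosome assembly. At an unadjusted p under 0.05 there were 344 genes (4.81% of those tested), 122 higher and 222 lower. Over all tested genes the median difference was -0.05 on the log2 scale, with 42.6% above 0 and 57.4% below. On the deposited scale, without normalization between arrays, the median was 0.05 and the split was the reverse, with 42.6% below 0, so the balance of directions over all genes depends on the scaling. The 2 genotypes did not overlap for 60 genes higher in the mutant (0.839%) and 86 lower (1.2%). Without Apc1638N/+ array 3 the count was 22 of 7029 genes (0.313%), 11 higher and 11 lower, and both Hspa1a and Gtpbp10 were among them. It was between 0 and 2 when any other single array was left out, and 0 when only the 8 villus arrays supplied the spread.

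The genes for the pair of inducible Hsp70 proteins, Hspa1a and Hspa1b, lie next to each other on chromosome 17, and their promoters are shown because they are nearly the same and because these 2 genes had the largest differences among the tested heat shock genes. The 250 bases before each start are from RefSeq (GRCm38.p6), chr17:34972157-34972406 for Hspa1a and chr17:34959239-34959488 for Hspa1b, both read 5′ to 3′ on the minus strand. Capitals mark the letters GAANNTTC, the core of a heat shock element, which reads the same on both strands.
Hspa1a: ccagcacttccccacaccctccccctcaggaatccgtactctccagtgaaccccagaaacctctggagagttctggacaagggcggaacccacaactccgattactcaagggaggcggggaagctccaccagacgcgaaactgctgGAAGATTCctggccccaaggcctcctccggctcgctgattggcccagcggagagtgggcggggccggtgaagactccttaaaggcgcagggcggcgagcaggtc
Hspa1b: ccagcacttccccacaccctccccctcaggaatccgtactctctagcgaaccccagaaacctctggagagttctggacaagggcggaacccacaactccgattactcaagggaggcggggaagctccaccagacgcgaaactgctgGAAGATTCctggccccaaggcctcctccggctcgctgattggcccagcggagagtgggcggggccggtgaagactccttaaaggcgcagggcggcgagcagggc
Of 250 bases 247 were identical. The match begins 104 bases before the start in both. The same letters occur in 6.72% of all 32536 promoter windows of this length. By gene, they occur for 7.73% of all 27025 genes and for 8 of the 22 heat shock genes with a window. A match is a description of the sequence and not evidence that a factor binds there.

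Hspa1a was measured at 9.33, 8.52, 8.89 and 10.85 on wild-type arrays 1 to 4 and at 12.79, 12.43, 11.09 and 12.22 on Apc1638N/+ arrays 1 to 4 (normalized log2 level). Every mutant array lay above every wild-type array, although mutant array 3 and wild-type array 4 were only narrowly apart. The difference was 2.73 ± 0.53 (SE, n = 4 per genotype), a 6.65-fold rise, with an adjusted p of 0.042. Leaving out single arrays moved the difference only between 2.44 and 3.22, but the adjusted p was above the threshold without wild-type arrays 1 (0.151), 2 (0.114) or 3 (0.217) and without mutant arrays 1 (0.35), 2 (0.259) or 4 (0.306). It was 0.00626 without wild-type array 4 and 0.0116 without mutant array 3. With blanks set to a low floor it was 0.177, at the same difference.

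Hspa1b had 3 probe sets, which differed by 2.36 to 2.58. On its probe set of highest level wild-type arrays 1 to 4 were at 11.83, 10.77, 12.41 and 12.92, and mutant arrays 1 to 4 at 15.13, 14.98, 13.17 and 14.32. The genotypes did not overlap on this probe set and overlapped narrowly on the other 2, where the lowest mutant array (11.44 and 12.36) lay below the highest wild-type array (11.74 and 12.44). The difference of 2.42 ± 0.54 did not pass the test (adjusted p = 0.0934), except without mutant array 3 (2.83, adjusted p = 0.0207). The coding sequences of the 2 genes are close relatives, so their probe sets may share transcripts and are not independent measurements.

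Across the 12 groups of the series, Hspa1a was a crypt-rich transcript. All 6 crypt groups had means of 12.20 to 14.02, and the other 5 villus groups had means of 8.04 to 10.21. Apc1638N/+ villi, at 12.13 ± 0.74 (SD, n = 4), lay at the level of p21-/- crypts (12.20, range 10.72 to 13.63) and wild-type crypts (12.49 ± 0.91), from which they did not differ by more than their spread. The lowest means, those of villi on the NWD2 and NWD1 diets, rested on 1 and 2 measured arrays.

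Gtpbp10 was blank on wild-type array 4 and at 7.40, 6.64 and 6.26 on wild-type arrays 1 to 3, against 7.66, 8.61, 8.36 and 8.90 on the mutant arrays. The genotypes did not overlap, with wild-type array 1 and mutant array 1 adjacent. The difference was 1.62 ± 0.32, a 3.06-fold rise (n = 3 and 4, adjusted p = 0.042). It was above the threshold without mutant array 2 (adjusted p = 0.259) or 4 (0.306), and it could not be tested without wild-type array 1, 2 or 3, since fewer than 3 wild-type values remained. A further probe set of the gene was measured on 2 wild-type and 3 mutant arrays, with means of 7.47 and 7.55, and so did not show the difference. Wild-type villi had the lowest mean of all 12 groups for this gene (6.77 ± 0.58, n = 3), next to 7.89 ± 0.48 in p21-/- villi and 7.91 ± 0.57 in villi of 1-year-old mice on Ain76A, whereas Apc1638N/+ villi (8.38 ± 0.53) lay within the range of the other groups.

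**Figure D1:**
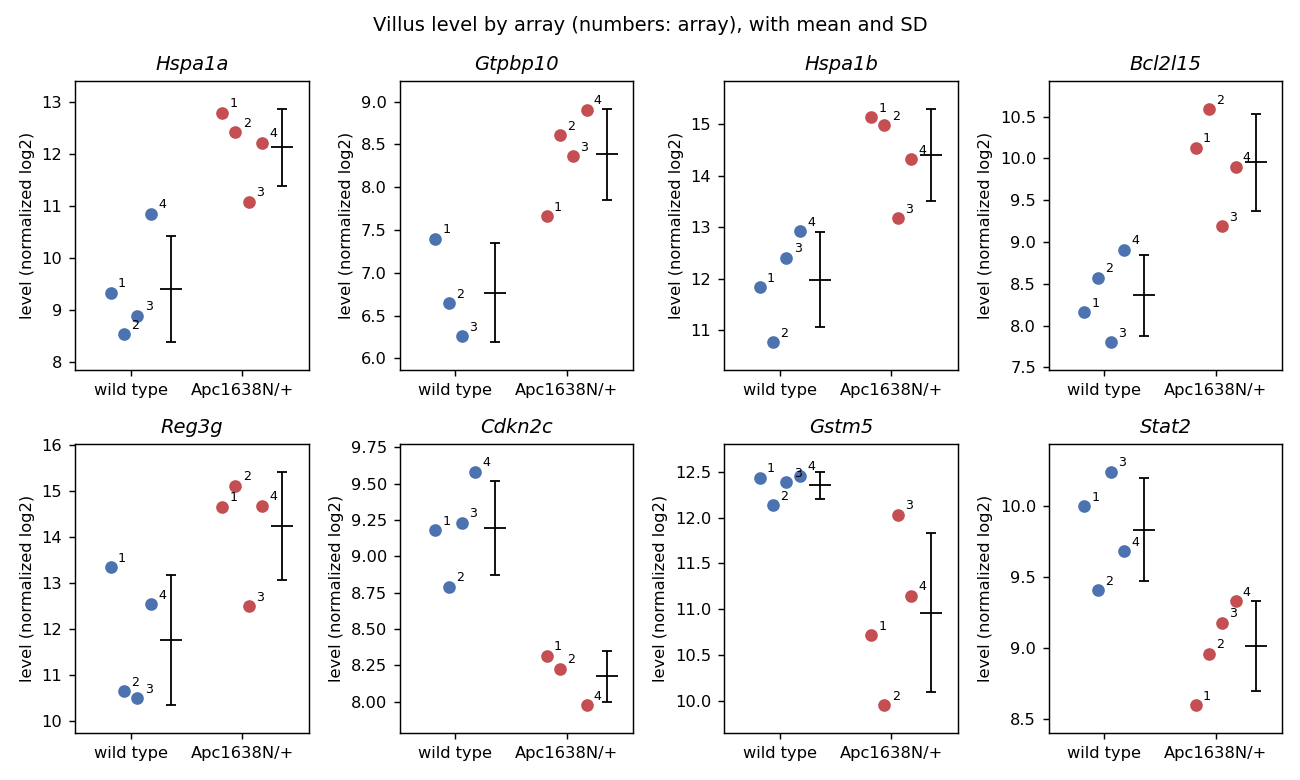
Normalized log2 level of 8 genes on the wild-type (blue) and Apc1638N/+ (red) villus arrays, 1 point per measured array labelled with its number, with the mean and SD as black bars. Hspa1a, Hspa1b, Gtpbp10 and Bcl2l15 were higher on every mutant array, Cdkn2c, Gstm5 and Stat2 lower, and Reg3g overlapped through mutant array 3.

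**Figure D2:**
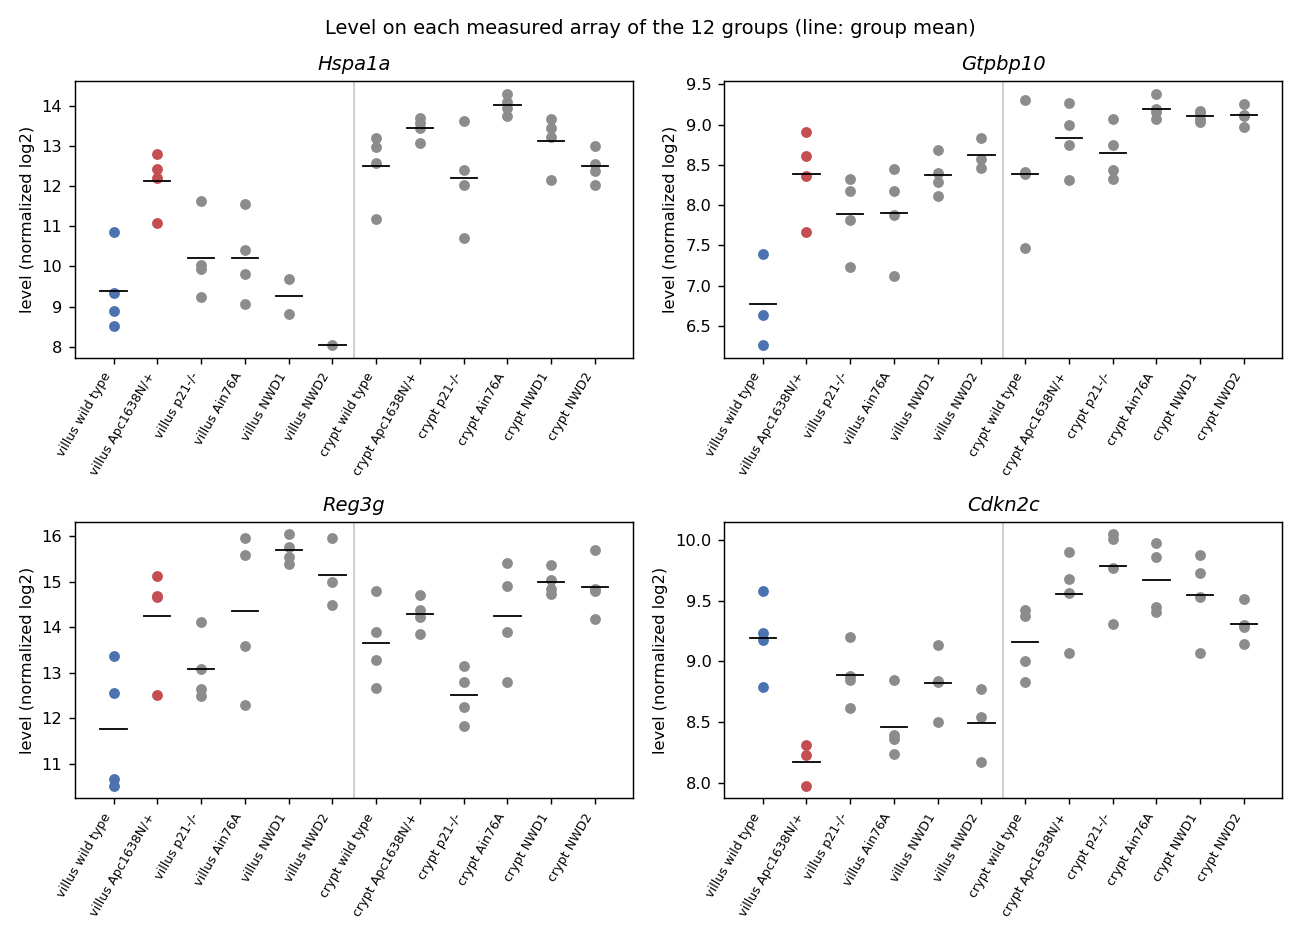
Normalized log2 level of Hspa1a, Gtpbp10, Reg3g and Cdkn2c on each measured array of the 12 groups, with the group mean as a line, wild-type villi in blue and Apc1638N/+ villi in red. Hspa1a in Apc1638N/+ villi sat at 12.13, next to the lowest crypt mean (12.20), and wild-type villi had the lowest group mean for Gtpbp10 (6.77) and Reg3g (11.77).

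Among heat shock chaperones as a group, which fold proteins and refold them under stress, 21 of 29 listed genes were tested, 1 passed the test (Hspa1a, risen) and 20 did not. Over all tested genes 0.028% passed. The median difference was 0.25, against -0.05 over all tested genes, with 16 above 0 and 5 below. Dnajb4, an Hsp40 co-chaperone, differed by 1.24 (adjusted p = 0.391), Bag3, which couples Hsp70 to autophagy, by 0.64 (adjusted p = 0.939), and both mitochondrial chaperonin subunits, Hspe1 and Hspd1, by 0.62 and 0.50. The constitutive members Hspa8 (0.07) and Hspa4 (-0.05) were near 0, each with 1 further probe set of opposite sign. Hspa4l was the 1 member whose groups did not overlap in the opposite direction (-0.63), against 86 of all 7152 tested genes (1.2%). Hspe1, Hspd1, Hspa8, Hspa4 and Hspa4l were singled out after their values were seen. The mean level of the 19 members measured on all 8 arrays was 10.61 to 11.05 in wild-type villi and 10.91 to 11.58 in mutant villi, overlapping through wild-type array 4 and mutant array 3. Without mutant array 3 the median was 0.41, with 2 of 21 called, Hspa1a and Hspa1b, against 0.313% of all genes then tested. Leaving out single arrays moved the median between 0.14 and 0.41. With the crypt-villus score of each array in the model it was 0.13, with 14 above 0 and 7 below.

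Other stress programmes were listed too, and their difference from the heat shock list was not tested. The 17 tested genes of the unfolded protein and amino acid responses had a median of -0.03 (8 above 0, 9 below), 0 called, with Hspa5, the Hsp70 of the endoplasmic reticulum, at 0.36. The 23 immediate early genes had a median of 0.04 and 0 called, from Gadd45a at -0.35 to the transcription factor Klf2 at 0.55. Of 9 p53 targets 5 were above 0, with 0 called, and Cdkn1a itself, which encodes p21, differed by 0.17 ± 0.25. These medians were -0.08, -0.05 and 0.12 without mutant array 3.

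Reg lectins are secreted C-type lectins that the epithelium makes against bacteria. Reg3g, which acts on Gram-positive bacteria, was at 13.36, 10.66, 10.51 and 12.55 on the wild-type arrays and at 14.67, 15.13, 12.51 and 14.69 on the mutant arrays. Mutant arrays 1, 2 and 4 exceeded every wild-type array, and mutant array 3 lay below wild-type arrays 1 and 4. The difference of 2.48 ± 0.62 was second in size only to Hspa1a among the genes named here and did not pass the test (adjusted p = 0.216), but it passed without mutant array 3 (3.06, adjusted p = 0.024). Reg3b, its neighbour on chromosome 6, differed by 1.44 ± 0.41 (adjusted p = 0.406), and its further probe set by 1.83. Reg3a differed by 0.39 and Reg1 by -0.71. The whole list of Reg and other antimicrobial genes had 9 tested members, 0 called, 3 above 0 and 6 below and a median of -0.06, and the 3 above 0 were the Reg3 genes. Without mutant array 3 it had 5 above 0, 4 below and a median of 0.29, with Reg3g called, against 0.313% of all genes then tested. Reg3a ranged from -0.12 to 1.05 with single arrays left out. Wild-type villi had the lowest Reg3g mean of the 12 groups, 11.77 ± 1.41, and the 11 other means ran from 12.51 to 15.69.

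Bcl2l15, a Bcl-2 family member linked to cell death in the gut, was at 8.16, 8.57, 7.80 and 8.91 in wild-type and 10.13, 10.59, 9.19 and 9.90 in mutant villi. The groups did not overlap, and the difference of 1.59 ± 0.38 did not pass the test (adjusted p = 0.156), though it did without mutant array 3 (1.84, adjusted p = 0.0377). Here too wild-type villi had the lowest mean of the 12 groups (8.36 ± 0.48), and the villi labelled p21-/- stood at 9.93 ± 0.88. The other genes among the 12 smallest p-values on the higher side were Sdc1, the epithelial heparan sulfate proteoglycan syndecan-1 (0.81, groups not overlapping), Sod1, cytosolic superoxide dismutase (0.65, with 2 of its 4 tested probe sets in the opposite direction), the secretory vesicle factor Cadps2 (0.64), the carboxylesterase Ces1f (1.80, blank on mutant array 3) and the glutathione-related enzyme Mgst2 (0.98). None of these passed the test, with adjusted p-values of 0.327 to 0.482.

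No gene fell in the mutant at the threshold, and the leading lower genes were led by a cell cycle inhibitor. Cdkn2c, which encodes the Cdk4 and Cdk6 inhibitor p18, was at 9.18, 8.79, 9.23 and 9.58 in wild-type villi and at 8.32, 8.23 and 7.98 on mutant arrays 1, 2 and 4, and it was blank on mutant array 3. The groups did not overlap, and the difference was -1.02 ± 0.23 (adjusted p = 0.0934). It passed without mutant array 3 (adjusted p = 0.0404), although that array held no value, and when blanks were set to a low floor (-1.39, adjusted p = 0.0191). Apc1638N/+ villi had the lowest mean of the 12 groups (8.17 ± 0.18, n = 3), followed by villi of 1-year-old mice on Ain76A (8.46 ± 0.26).

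Gstm5, a glutathione S-transferase, was at 12.43, 12.14, 12.39 and 12.46 in wild-type and 10.71, 9.95, 12.03 and 11.15 in mutant villi. The wild-type arrays lay close together and the mutant arrays were spread, with array 3 next to the wild type. The difference of -1.39 ± 0.31 did not pass the test (adjusted p = 0.0934) except without mutant array 3 (-1.75, adjusted p = 0.00869). Tcl1b3 (-1.10), the ribosome biogenesis factor Tbl3 (-0.97) and the retinoic acid-induced regulator Rai1 (-0.90) likewise passed only without that array, at adjusted p-values of 0.0456. Tcl1b3, like Cdkn2c, was blank on mutant array 3, so its difference was the same with and without it. Further lower genes that did not pass were the protein kinase C isoform Prkce (-0.75), the elongation factor Tcea3 (-0.89), the cholesterol carrier Stard3 (-0.72), the tight junction protein cingulin, Cgn (-0.70), the cyclophilin Ppic (-1.06) and Nckap1 of the WAVE actin complex (-0.48).

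The remaining genes called without mutant array 3 were chosen after their values were seen, and none passed with all 8 arrays. On the higher side they were the brush border aminopeptidase Enpep (1.58 without the array, 1.06 with it), glutathione reductase, Gsr (1.28 and 0.90), the phospholipase Plce1 (1.02 and 0.75) and the phosphoinositide phosphatase Pip4p2 (1.04 and 0.48), besides Mgst2 and Sod1. On the lower side they were the tetraspanin Tspan9 (-1.58 and -0.98), the integrin Itga3 (-1.26 and -0.83), the ubiquitin ligase Mib2 (-1.23 and -0.81), the transcriptional repressor Cic (-1.10 and -0.65), Psd4 (-1.28 and -0.78) and the histone deacetylase Hdac5 (-1.03 and -0.69). For all 6 of the latter, mutant array 3 was above the highest other mutant array by more than 1 log2 unit.

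Interferon-stimulated genes, which encode antiviral effectors and the factors that induce them, had values below 0 for every tested member. All 26 tested members had a difference below 0, against 57.4% of all tested genes, and the median was -0.47. On the deposited scale 24 of 26 were below 0, against 42.6% of all genes, with a median of -0.34. None of the 26 passed the test. The genotypes did not overlap for 2 of them, both lower, against 86 of all 7152 tested genes (1.2%). They were Stat2 and Mx1 (-0.55), the latter named after its values were seen. Stat2, a transcription factor that carries type I interferon signals to the nucleus, was at 9.41, 10.24 and 9.68 on wild-type arrays 2, 3 and 4, between the last 2 of these on wild-type array 1, and at 8.60, 8.96, 9.18 and 9.33 in mutant villi. The groups did not overlap, with a difference of -0.82 ± 0.22 (adjusted p = 0.336). A further probe set of Stat2, which was not tested, had overlapping groups and means of 8.74 on 3 mutant arrays and 8.85 on 4 wild-type arrays. Irf7 and Irf1, transcription factors of the response, differed by -0.68 and -0.43, and the RNA-editing enzyme Adar by -0.37, with overlapping groups.

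The promoters of Stat2 and Oas3 are shown as examples of the letters GAAA, any 2 bases and GAAA, the core of the interferon-stimulated response element, searched on both strands and set in capitals. Oas3, chosen for its match, encodes an antiviral oligoadenylate synthetase and differed by -0.54. The 250 bases before the start (RefSeq, GRCm38.p6) are chr10:128270248-128270497 on the plus strand for Stat2 and chr5:120777660-120777909 on the minus strand for Oas3.
Stat2: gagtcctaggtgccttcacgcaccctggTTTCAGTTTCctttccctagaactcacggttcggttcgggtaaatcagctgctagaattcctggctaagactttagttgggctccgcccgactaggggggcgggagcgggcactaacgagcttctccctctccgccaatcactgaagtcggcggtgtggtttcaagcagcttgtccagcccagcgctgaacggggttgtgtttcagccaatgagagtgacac
Oas3: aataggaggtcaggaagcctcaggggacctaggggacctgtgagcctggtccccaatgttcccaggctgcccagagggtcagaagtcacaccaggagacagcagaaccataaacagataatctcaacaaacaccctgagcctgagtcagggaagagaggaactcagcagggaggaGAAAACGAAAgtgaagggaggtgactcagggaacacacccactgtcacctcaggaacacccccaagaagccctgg
The letters were found for 12 of the 25 interferon-stimulated list genes with a window, and for 3.46% of all 27025 genes in the promoter table.

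By array, the mean level of the 23 interferon-stimulated genes measured on all 8 arrays was 12.08, 11.82, 12.11 and 11.27 in wild-type villi and 11.06, 11.53, 11.31 and 11.77 in mutant villi. Wild-type arrays 1 to 3 lay above all mutant arrays, and wild-type array 4 lay below 3 of the 4. The median difference stayed between -0.61 and -0.31 when single arrays were left out, and 20 to 25 members were then below 0. With the crypt-villus score of each array in the model it was -0.34, with 23 below 0 and 3 above. The list was villus-rich, with a median of -2.03 for crypts minus villi of 1-year-old mice on Ain76A over 22 members. The part of the crypt-villus axis in these values was not tested. The 5 tested interferon-induced GTPases, led by Gbp8 (-0.57) and Irgm1 (-0.26), were all below 0 with a median of -0.23. Antigen presentation by MHC class I had a median of -0.06 (4 of 14 above 0) and by class II of -0.19 (2 of 7 above 0), with 0 called in each. The GTPases were at -0.24, class I at -0.12 and class II at -0.71 without mutant array 3.

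Intraepithelial lymphocytes, T cells lodged between enterocytes, were represented by 20 tested genes, of which 19 were below 0, 0 were called and the median was -0.36. Cd7 (-0.64), Cd8a (-0.62) and the death ligand Fasl (-0.62) led on the lower side, and the activation marker Cd69 (0.71) was the 1 exception. The mean level of the list was 12.33, 11.07, 12.01 and 12.18 in wild-type villi and 11.08, 11.21, 12.94 and 10.99 in mutant villi. The genotypes overlapped completely, since mutant array 3 was the highest of the 8 and wild-type array 2 among the lowest. Without mutant array 3 the median was -0.92, with 0 called, and without wild-type array 2 it was -0.66. It was nearer to 0 without mutant array 4 (-0.20) or 1 (-0.21), and between -0.30 and -0.24 without any of the other 4 arrays. Of 5 tested myeloid genes all 5 were below 0, with a median of -0.30, from the receptor Csf1r (-0.55) upward, and without mutant array 3 the median was -0.69.

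**Figure D3:**
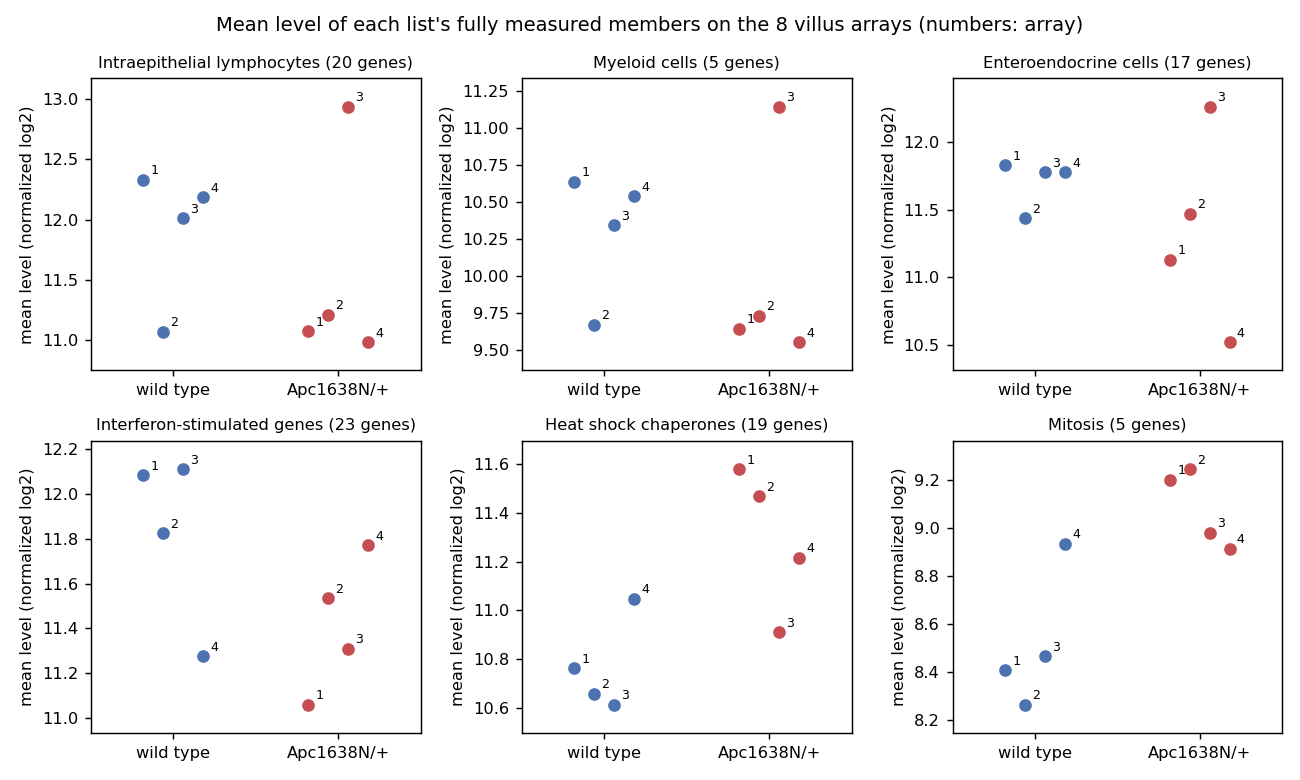
Mean normalized log2 level of the members of 6 gene lists measured on all 8 villus arrays, 1 point per array labelled with its number, wild type in blue and Apc1638N/+ in red. Mutant array 3 was the highest of the 8 for lymphocyte (12.94), myeloid (11.14) and enteroendocrine (12.26) genes, and wild-type array 4 lay nearest to the mutant arrays for interferon-stimulated, heat shock and mitosis genes.

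Secretory lineages were listed separately, and the lists were not tested against each other. Enteroendocrine genes, which encode gut hormones and their processing enzymes, were below 0 for 15 of 17 tested members, with a median of -0.42 and 0 called. Somatostatin (Sst) differed by -1.02, the secretory granule protein Scg5 by -0.65 and the prohormone convertase Pcsk1 by -0.42. The list's mean level was 11.44 to 11.83 in wild-type villi and 10.52 to 12.26 in mutant villi, so the mutant arrays spanned the wild type, and without mutant array 3 the median was -0.71. Without mutant array 4, the lowest, it was -0.11. Tuft cell genes had a median of -0.33 over 7 tested members with 0 called, and their kinase marker Dclk1 differed by -0.46, with 6 of 17 markers blank on all 8 arrays, Pou2f3 and Il25 among them. The tuft median was -0.77, with 5 tested, without mutant array 3. The 17 tested goblet genes had a median of -0.05, as all tested genes had, with 0 called, the lineage factor Atoh1 at -0.41 and the peptide Guca2a at 0.79, and without mutant array 3 the median was -0.13.

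Of 5 tested Paneth cell genes 3 were above 0 and 2 below. The lysozyme Lyz1 differed by 0.71, the defensin Defa39 by 0.86 and the lectin Itln1 by 0.99, and the other tested members, Clps (-0.58) and Pnliprp2 (-0.19, named to complete the list), encode a lipase cofactor and a lipase rather than antimicrobial proteins. None of the 5 passed the test. Lyz1 was at 12.20, 13.48, 11.93 and 11.90 in wild-type and 13.66, 12.79, 13.00 and 12.90 in mutant villi, with wild-type array 2 inside the mutant range. Itln1 was blank on wild-type array 3 and mutant array 3. The list mean overlapped between genotypes, with wild-type array 2 the highest of the 8 (11.60). The list median of 0.71 was 0.14 without wild-type array 4 and 0.10 without mutant array 4, with 4 members tested.

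Genes of dividing cells were listed for mitosis and for DNA replication, and the lists were not tested against each other. Of 9 tested mitosis genes, from 33 on the array, 8 were above 0, with a median of 0.55 and 0 called. Cks1b, a cofactor of cyclin-dependent kinases, differed by 1.00 with groups that did not overlap, topoisomerase Top2a by 0.72, the spindle checkpoint protein Mad2l1 by 0.67 and Cks2 by 0.55. The 5 members measured on all 8 arrays had mean levels of 8.41, 8.26, 8.47 and 8.93 in wild-type villi and of 9.20, 9.24, 8.98 and 8.91 in mutant villi, which overlapped only through wild-type array 4 and mutant array 4. The 17 DNA replication genes had a median of 0.07 with 10 above 0 and 0 called, and the helicase subunit Mcm5 (1.05) was the 1 member whose groups did not overlap. Over all 7152 tested genes, 60 (0.839%) did not overlap on the higher side. The medians were 0.56 for mitosis and 0.01 for DNA replication without mutant array 3, and with the crypt-villus score in the model that of mitosis was 0.35. Crypt base stem cell genes had a median of 0.13 over 7 tested members, 0 called, with the ion cotransporter Slc12a2 at 0.75; Ascl2, Msi1 and Mex3a were blank on all 8 arrays. Of the 23 cytosolic ribosomal proteins 18 were above 0 with a median of 0.21 and 0 called, but without mutant array 3 the median was -0.01 with 11 above 0.

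Stem, Paneth and mitosis genes are crypt genes, so the crypt-villus axis was examined with genes chosen on other arrays. In crypts against villi of 1-year-old mice on Ain76A, 253 of the genes tested here were at least 2 log2 units higher in crypts and 341 at least 2 log2 units higher in villi. In Apc1638N/+ against wild-type villi, 74.3% of the crypt-higher genes were above 0 with a median of 0.22, and 30.5% of the villus-higher genes were above 0 with a median of -0.16. On the deposited scale the medians were 0.31 and -0.07, with 209 of 253 and 138 of 341 above 0. The remaining 6298 genes had 43.1% above 0 and a median of -0.04. The groups did not overlap for 13 of the 253 crypt-higher genes on the higher side, against 60 of all 7152. Across 6892 genes the 2 differences correlated at r = 0.26 (Spearman's rho 0.27), a description, since genes are not independent replicates. Leaving out single arrays moved the median of the crypt-higher genes between 0.15, without mutant array 3, and 0.33, without wild-type array 4, and that of the villus-higher genes between -0.25 and -0.11. With the score of each array as a covariate, which is built from such genes, the medians were 0.08 and -0.01, 0 genes passed, and Hspa1a (2.57, adjusted p = 0.0563) and Gtpbp10 (1.53, adjusted p = 0.0707) kept their size. Both were themselves crypt-rich, since Hspa1a was 3.81 log2 units and Gtpbp10 1.29 log2 units higher in 1-year crypts than villi. The scores of the 2 genotypes overlapped.

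**Figure D4:**
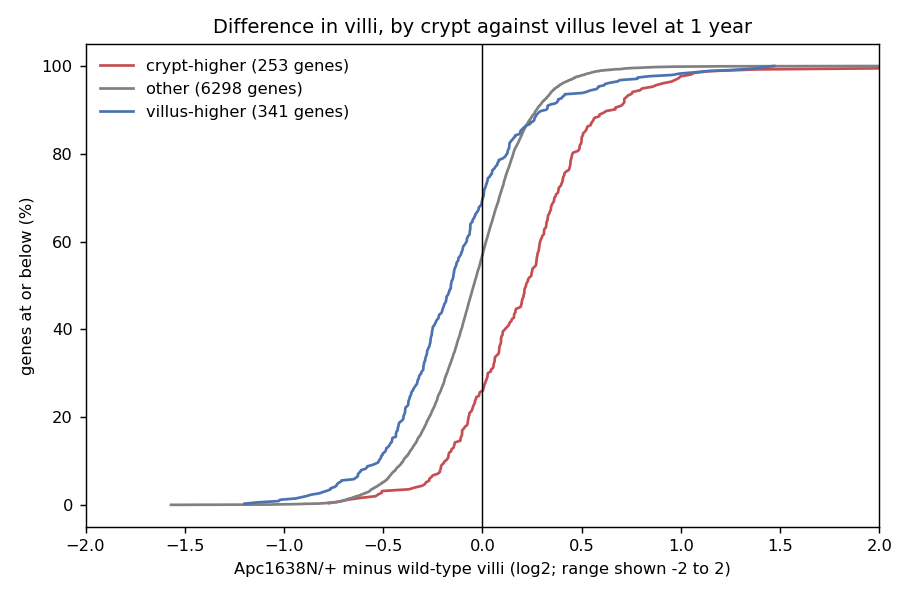
Cumulative share of genes (percent) by their Apc1638N/+ minus wild-type difference in villi (log2), for genes at least 2 log2 units higher in crypts (red) or in villi (blue) of 1-year-old mice on Ain76A, and all other genes (grey). The curve of crypt-higher genes lies to the right, with a median of 0.22, and that of villus-higher genes to the left, with a median of -0.16.

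For Wnt signalling, the pathway that Apc restrains, 7 of 24 listed target genes and 17 of 28 genes of the machinery were tested in villi, and 0 passed. Most targets, Lgr5, Myc, Ccnd1 and Sox9 among them, were not tested, so the values do not measure the signalling itself. Apc itself was at 10.87, 11.06, 11.31 and 10.38 in wild-type and 10.68, 10.85, 10.39 and 11.02 in mutant villi. The groups overlapped, and the difference was -0.17 ± 0.19 (adjusted p = 0.969), with its 2 other tested probe sets at -0.67 and -0.04. The sources used here do not say where these probe sets lie relative to the altered part of the allele, so their level does not check the genotype. The 7 tested Wnt target genes had a median of 0.03, with 4 above 0 and 0 called. Axin2, the feedback inhibitor used as a readout of the pathway, differed by 0.26 ± 0.39 and ranged from -0.31 to 0.59 with single arrays left out. Cd44, an adhesion receptor of crypt cells, was at 8.21, 8.42, 8.21 and 8.27 in wild-type and at 8.21, 9.76, 9.35 and 9.26 in mutant villi. Mutant arrays 2, 3 and 4 were above all wild-type arrays and mutant array 1 was among them, and the difference of 0.86 ± 0.29 did not pass (adjusted p = 0.724). The 17 genes of the destruction complex and Wnt machinery had a median of -0.10 with 7 above 0 and 0 called, and the kinases Gsk3a and Gsk3b differed by -0.48 and -0.40, the latter with 1 of 4 probe sets in the opposite direction. The median of this list was -0.20 and that of the Wnt targets 0.06 without mutant array 3. Ascl2 and Ephb3, crypt targets of the pathway, were blank on all 8 arrays. Among 87 tested genes within 20 Mb of Apc on its chromosome 0 were called, 52 were above 0 and the median was 0.04.

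Differentiated functions of the villus were spread around 0. The 20 brush border genes had a median of -0.08, 7 above 0 and 0 called, but single peptidases lay far apart, with the enterokinase gene Tmprss15 at -1.64 and the peptidases Naaladl1, Enpep and Dpp4 at 1.13, 1.06 and 0.69. Enpep was at 12.59, 13.35, 12.64 and 14.22 in wild-type and 14.94, 14.58, 12.72 and 14.80 in mutant villi, so that mutant array 3 lay within the wild type and the other 3 above it. Nutrient transporters had a median of -0.04 (8 of 16 above 0, 0 called), and 1 of them, the folate transporter Slc46a1 (-0.71), had groups that did not overlap. The cystine transporter subunit Slc7a9 differed by -0.47. The transporter median was 0.09, with 12 of 16 above 0, without mutant array 3. In lipid uptake and chylomicron assembly the median was -0.05, with 10 of 22 above 0 and 0 called. Here the fatty acid-binding protein Fabp2 (0.30) was higher on every mutant array, and the cholesterol importer Npc1l1 (-0.37) and the acyltransferase Dgat1 (-0.31) were lower on every mutant array. Over all tested genes, the groups did not overlap for 0.839% on the higher side and 1.2% on the lower side. The cholesterol exporter Abca1 differed by 1.37 (adjusted p = 0.939), with mutant array 3 at the wild-type level.

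Oxidative and detoxifying metabolism was covered by several lists, several of whose medians moved when mutant array 3 was left out. Nrf2 and glutathione genes had a median of 0.21 over 14 tested genes, 10 above 0 and 0 called, led by Gsr (0.90) and Sod1. Without mutant array 3 the median was 0.38 and 2 of the 14 were called, Gsr and Sod1, against 0.313% of all genes then tested. Sod1 also had probe sets in the opposite direction, as given above. Gsr was at 9.34, 9.22, 9.25 and 9.06 in wild-type and 10.17, 10.27, 9.0 and 11.04 in mutant villi, and again mutant array 3 alone was at or below the wild type. Cytochrome P450 and conjugation genes had a median of 0.02 over 25 tested members, 0 called, with wide single values, Cyp2c55 at 1.28, Aldh1a1 at 1.17, Ugt2b5 at 1.16 and Cyp2c29 at -1.13, and their groups overlapped. Their median was 0.38 as well, with 21 of 25 above 0, without mutant array 3. Of 16 genes for fatty acid oxidation or induced by PPAR, 8 were above 0 and 0 were called, with a median of -0.01, led by the pantetheinase Vnn1 (1.07). Oxidative phosphorylation subunits (median 0.05, 29 tested), cholesterol synthesis (0.10, 14 tested), metallothioneins and zinc transport (0.12, 7 tested, Slc30a1 at 0.54) and the circadian clock (-0.15, 12 tested, Nr1d1 at -0.31) each had 0 called. Without mutant array 3 oxidative phosphorylation was at 0.23 with 27 of 29 above 0, fatty acid oxidation at 0.09 with 12 of 16, cholesterol synthesis and metallothioneins at 0.01 and the clock at -0.01.

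**Figure D5:**
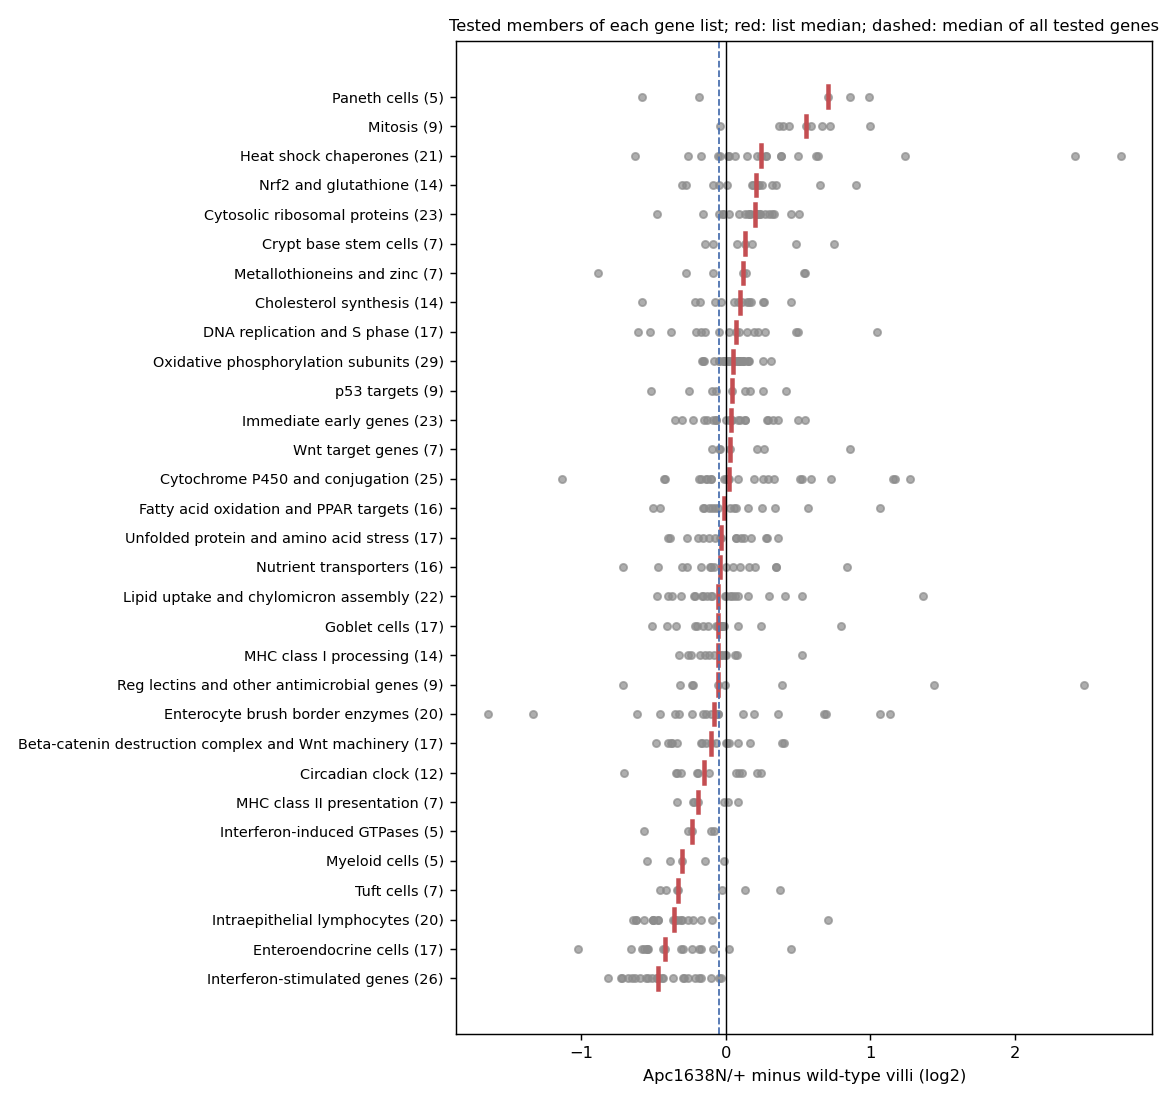
Difference Apc1638N/+ minus wild-type villi (log2) of each tested member (grey points) of the gene lists with at least 5 tested members, ordered by list median (red bar), with the median of all tested genes (-0.05) dashed. Interferon-stimulated genes lie wholly below 0 with a median of -0.47, and the mitosis and Paneth cell lists have the highest medians, 0.55 and 0.71.

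Among the 8 villus arrays, some probe sets were measured in 1 genotype only. Of 45101 probe sets, 38 were measured on all 4 mutant arrays and no wild-type array, and 29 of these carry 1 gene symbol. The reverse held for 8, of which 5 do. The highest with 1 gene symbol in the first class were Vsig10 (mean level 8.87), Dennd4b (8.74), Aarsd1 (8.54), Capn10 (8.23) and Cmtr1 (8.10). In the second class the highest with 1 gene symbol were Lats2, a kinase of the Hippo pathway (7.97), Car10 (7.53), Ceacam10 (7.40), Rmc1 (7.34) and Slc25a2 (6.77). No source used here states why a value is blank. More probe sets were measured on the mutant arrays (19556 ± 1391 SD) than on the wild-type arrays (18239 ± 1035 SD), a difference that did not separate the genotypes (permutation test, p = 0.2). The part of that number in these counts was not tested. Of the first class, Vsig10 was measured on 36 of the 39 other arrays, whereas Dennd4b was measured on 13. Of the second class, Ceacam10 was measured on 31 of them and Lats2 on 7.

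The same genotype comparison was made in crypts, and its difference from the villus comparison was tested directly. The Apc1638N/+ crypt arrays held 15476 to 21914 measured probe sets, against 19091 to 22078 in wild-type crypts. Their 3'-minus-5' signal of actin was 1.31 to 3.30, against 1.11 to 2.60. The part of RNA quality in the crypt values was not tested. In crypts 0 of 7142 genes passed (900 at an unadjusted p under 0.05). The villus effect minus the crypt effect passed for 0 of 6590 genes (383 at an unadjusted p under 0.05, smallest adjusted p 0.103). The smallest p-values belonged to Cdkn2c, which differed by -1.02 in villi and 0.39 in crypts, Tcl1b3 (-1.10 and 0.61) and the histone methyltransferase Setdb2 (-0.43 and 0.75), each with an adjusted p of 0.103. On the other side they belonged to the RNA methyltransferase Mettl3 (0.21 and -0.79, adjusted p = 0.209), Tmem179b (0.39 and -0.88) and Antkmt (0.15 and -0.85). Hspa1a differed by 2.73 in villi and 0.97 in crypts, a gap of 1.77 that did not pass (adjusted p = 0.777), and Gtpbp10 by 1.62 and 0.44. Without Apc1638N/+ crypt array 3 the gap passed for 16 genes, 6 positive and 10 negative, and with wild-type crypt arrays 2 and 4 left out, whose scores of 0.02 and 0.20 lay between the tissues, it passed for 0.

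Villi labelled p21-/- were set beside the same wild-type arrays, so the 2 comparisons share their controls and only values are given. Cdkn1a was not lower on the arrays labelled p21-/- (13.11 ± 0.29 against 12.73 ± 0.26 in wild-type villi), and no source used here places its probe sets relative to the deleted part. Of 7151 genes 3 passed (0.042%). Hspa1a differed by 0.81 there against 2.73 in Apc1638N/+ villi, Hspa1b by 0.59 against 2.42, Gtpbp10 by 1.12 against 1.62, Bcl2l15 by 1.56 against 1.59 and Reg3g by 1.31 against 2.48. The interferon-stimulated list had 23 of 25 members below 0 and a median of -0.49 there, against 49% of all genes, and the lymphocyte list had 19 of 19 below 0 and a median of -0.84. The heat shock median was -0.02 there against 0.25, the mitosis median 0.04 against 0.55, and the Paneth median -0.35 against 0.71. The differences between the mutants were not tested.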

How the data were processed

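RNA of crypt and villus fractions was purified with Qiagen reagents, biotin-labelled and hybridised to Affymetrix arrays, per the labels' protocols, and GCOS was used, per the submitters' processing notes. The authors deposited log2 values, of which 55.2% are blank (58.1% on the 8 villus arrays), for a reason not given in the sources used here. Arrays were quantile-normalized on the 8404 probe sets measured throughout, with interpolation for the others, because trimmed means differed by more than 1.2-fold between arrays (1.44-fold). Probe sets above the array median on at least 3 arrays were kept (14919), and each of 8217 genes was represented by its probe set of highest mean. Genes with at least 3 values in each compared group were tested in limma 3.58.1 (R 4.3.3), with a mean for each of 12 groups over 47 arrays, a trended prior variance and Benjamini-Hochberg adjustment; the threshold was an adjusted p of 0.05. The number of arrays limits the precision. Named genes are those called, the 12 smallest p-values in each direction, up to 4 members of a list by smallest p and the 3 smallest interaction p-values each way. Also named are up to 5 genes measured in 1 genotype only among the 8 villus arrays, and Apc, Cdkn1a, Hspa1a, Hspa1b and the Reg3 genes. Exceptions are stated in place. The members and the 35 gene lists were chosen with earlier results of these data known. Alternatives covered scaling, arrays in the model, the replicate block, filter, blanks, prior, score, probe set choice and single arrays left out. The test was checked on simulated data.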

Additional observations from a re-analysis of the deposited data

Results flagged for a closer look

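Of 259 groups of 4 values examined, 20 held a value far from the other 3 by Dixon's criterion (7.7%), and 14 of the 20 were on Apc1638N/+ array 3. Some genes examined, Itga3 and Cic among them, were named because they passed without that array, so the choice favoured their flags there. List means also share genes with the named genes, so the nominal 5% of the criterion is not a rate to compare with. On that array Reg3b (14.69, others 15.73 to 15.89), Cadps2 (8.65, others 8.95 to 8.99), Enpep (12.72, others 14.58 to 14.94), Dpp4 (11.69, others 13.27 to 13.30), Abca1 (9.89, others 11.87 to 12.09) and Cks2 (9.60, others 10.28 to 10.40) were low. Irf1 (12.88, others 11.57 to 11.78), Itga3 (12.27, others 10.42 to 10.66), Cic (10.87, others 8.97 to 9.18) and the spike-in level (14.16, others 13.27 to 13.41) were high on it. Among list means on the same array, Reg and antimicrobial genes (12.82, others 13.83 to 13.97) and fatty acid oxidation (11.19, others 11.80 to 11.92) were low, and lymphocyte (12.94, others 10.99 to 11.21) and myeloid genes (11.14, others 9.55 to 9.73) were high.

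In wild-type villi, Tcl1b3 was high on array 1 (10.93, others 10.28 to 10.35), Tcea3 (9.61, others 8.73 to 8.86) and Itga3 (12.79, others 11.37 to 11.54) were high on array 4, and the clock list was low on array 4 (9.99, others 10.18 to 10.22). On wild-type array 2 the transporter list was high (12.84, others 12.47 to 12.51) and the enteroendocrine list low (11.44, others 11.78 to 11.83).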

How the results depend on the processing

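The count of genes passing in villi, 2, became 0 on the deposited scale, with the 8 villus arrays or the 24 arrays of the genetic study alone, with each array's crypt-villus score added to the model, with probe sets tested singly, and with the replicate block. At an unadjusted p under 0.05 these gave 297, 202, 154, 367, 651 and 196 (limma; smallest adjusted p 0.0552, 0.927, 0.334, 0.0563, 0.0783 and 0.822). It was 2 without the filter, without the prior trend, with another probe set choice and with blanks at a floor (there Gtpbp10 and Cdkn2c), and 0 to 22 when 1 array was left out, 22 without Apc1638N/+ array 3. The cause was not tested. Replicate numbers did not pair the villus arrays: same-numbered arrays correlated at -0.46 to 0.47, 1 of 4 above 0.1, and 1 array correlated best with its own number. Between Apc1638N/+ crypts and villi same-numbered arrays correlated at 0.04 to 0.57, 3 of 4 above 0.1 (other numbers -0.59 to 0.23). For wild-type crypts and villi this was -0.27 to 0.09, 0 above 0.1. Between crypts of the 2 genotypes it was 0.02 to 0.59, 3 above 0.1. The villus-minus-crypt test did not model a pairing of crypt and villus arrays. The villus-minus-crypt count of 0 was 1 without the filter (Bbx, lower), 0 with the replicate block within tissue, and 0 to 16 with single arrays left out. It was also 0 without wild-type crypt arrays 2 and 4, a choice made after seeing the data. The Paneth median ranged from 0.10 to 0.74 with single arrays left out, and the median of villus-higher genes was -0.0076 with the score as a covariate. Of 1620 values for 98 named genes, 1574 kept direction and side of the threshold, 19 lost a call, 21 gained one (20 without Apc1638N/+ array 3) and 6 changed sign, all with 1 array left out: Reg3a ranged from -0.12 to 1.05, Axin2 from -0.31 to 0.59, Dclk1 from -0.85 to 0.11 and H2-Aa from -0.87 to 0.42. Only the 2 genes that passed, Hspa1a and Gtpbp10, could lose a call, so all 19 losses were theirs. With single arrays left out, Hspa1a lost its call in 6 of 8 fits and Gtpbp10 in 2 of 5. Most values that kept their side belong to genes that never passed, so their number does not measure how stable the calls were.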
